A study of Mus musculus with 18 samples.

Results

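The mitochondrial ribosomal protein genes are the nuclear genes that encode the protein parts of the ribosome inside mitochondria. They were taken as the protein-coding genes of the RefSeq annotation of GRCm38.p6, the assembly of mm10, whose symbols begin with Mrpl or Mrps followed by a digit. This gave 78 of 21631 protein-coding genes on chromosomes 1 to 19 and X, 49 named for the large subunit (Mrpl) and 29 for the small subunit (Mrps). At these genes dimethylation of lysine 79 of histone H3 (H3K79me2) was compared between mouse CD4 T cells of 3 kinds by chromatin immunoprecipitation and sequencing, in a series about DOT1L in T helper cells. Every sample was labelled as genotype WT. Th1 cells were CD4-enriched cells of IFNg-YFP reporter mice, stimulated for 4 days through CD3 and CD28 by plate-bound antibodies in the presence of IL-12, IL-2 and a block of IL-4 (anti-IL-4), and sorted as YFP-positive (3 libraries). Th2 cells were made in the same way with IL-4, IL-2 and a block of IFNg (anti-IFNg) from mice carrying AmCyan at IL-4 and dsRed at IL-13, and were sorted for either reporter (3 libraries). Naive cells, the third group, were sorted straight from the spleens of WT mice as CD44- CD62L+ cells (3 libraries). The 9 input libraries beside them entered no comparison. Culture, activation, reporter strain and sort therefore differ together between polarised and naive cells and cannot be told apart. Since no label tells if replicate libraries stem from different mice, p-values are about library-to-library spread alone, and this spread may be technical.

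Mammalian mitochondria translate the few proteins encoded by their own DNA, all of them parts of the respiratory chain and the ATP synthase, on ribosomes of their own. The RNAs of this ribosome come from mitochondrial DNA, but all of its proteins are encoded in the nucleus, made in the cytosol and imported, so that the nuclear genes of many chromosomes must be active together. Activated T cells enlarge their mitochondria and raise mitochondrial translation as they grow. H3K79me2 is set by the methyltransferase DOT1L on transcribed genes, where it usually covers the first part of the gene body.

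For every gene, the percent of its annotated length covered by the merged broad peaks of a library was measured. A run of covered bases is called a domain below. The lists covered 217 to 240.1 Mb in Th1, 232 to 249.9 Mb in Th2 and 276 to 285 Mb in naive libraries, and read depth behind them is unknown. Percent covered in bulk cells does not tell a change of the mark in every cell from a change in the share of cells that carry it. The T cell genes Cd3e, Lat and Thy1 were covered over 100% of their length in all 9 lists, and Cd4 over 80.0 to 86.4%. Cd3g was covered over 90.7 to 97.7% in Th1, 83.0 to 85.7% in Th2 and 100% in naive libraries, and Lck over 95.9 to 100%, 90.2 to 92.2% and 100%. Ifng was covered over 100% in Th1 libraries, against 0 to 8.31% in Th2 and 0% in naive libraries. Il4 and Il13 were covered over 100% in every Th2 library, against 0 to 47.1% in Th1 and 0% in naive libraries. Of the other Th1 genes, Tbx21 was covered over 100% in Th1, 99.7 to 100% in Th2 and 0% in naive libraries, and Il12rb2 over 94.7 to 97.8% in Th1, 68.3 to 74.2% in Th2 and 27.8 to 31.5% in naive libraries. Of the other Th2 genes, Il5 was covered over 78.4 to 100% in Th2 and 0% in all other libraries, and Gata3 over 58.02 to 61.7% in Th1, 96.6 to 100% in Th2 and 74.6 to 76.7% in naive libraries. Some markers of other cells moved with the groups. Cd8a was covered over 0% in Th1, 0 to 14.8% in Th2 and 100% in naive libraries, and Cd8b1 over 7.55 to 11.9%, 17.8 to 27.8% and 100%. Of 5 B cell genes, Cd79a was covered at 100% in all lists, Cd79b at 0% in both helper types and 36.0 to 84.0% in naive libraries, and Blk, Ms4a1 and Pax5 at 0% in all lists. All 4 myeloid genes stood at 0% in all lists. Tyrobp, the only 1 of 3 natural killer genes above 2.46% in any list, was covered at 37.4 to 55.4% in Th1, 78.95 to 100% in Th2 and 100% in naive libraries. Of 3 erythroid genes, Hbb-bs stood at 0% in all lists, Klf1 reached 45.6% in Th2 and Gata1 16.5% in naive libraries. The part of these in the values below was not tested.

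The mark touched nearly every mitochondrial ribosomal protein gene in all 3 cell types. Some base was covered in all 9 lists at 77 of the 78 genes (98.7%), against 9833 of 21631 protein-coding genes (45.5%). A gene was taken as marked in a cell type where at least 50% of it was covered in at least 2 of the 3 libraries. By this measure 54 genes were marked in Th1 (69.2%), 54 in Th2 (69.2%) and 63 in naive cells (80.8%), beside 26.5, 26.8 and 33.1% of all protein-coding genes. The mean percent covered over the 78 genes was 64.4 to 67.7% in Th1, 65.3 to 67.8% in Th2 and 74.8 to 75.6% in naive libraries, so that the naive libraries lay above all 6 others. Over all protein-coding genes the same mean was 26.2 to 28.1, 26.6 to 27.7 and 31.0 to 31.7%, with the same order.

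**Figure D1:**
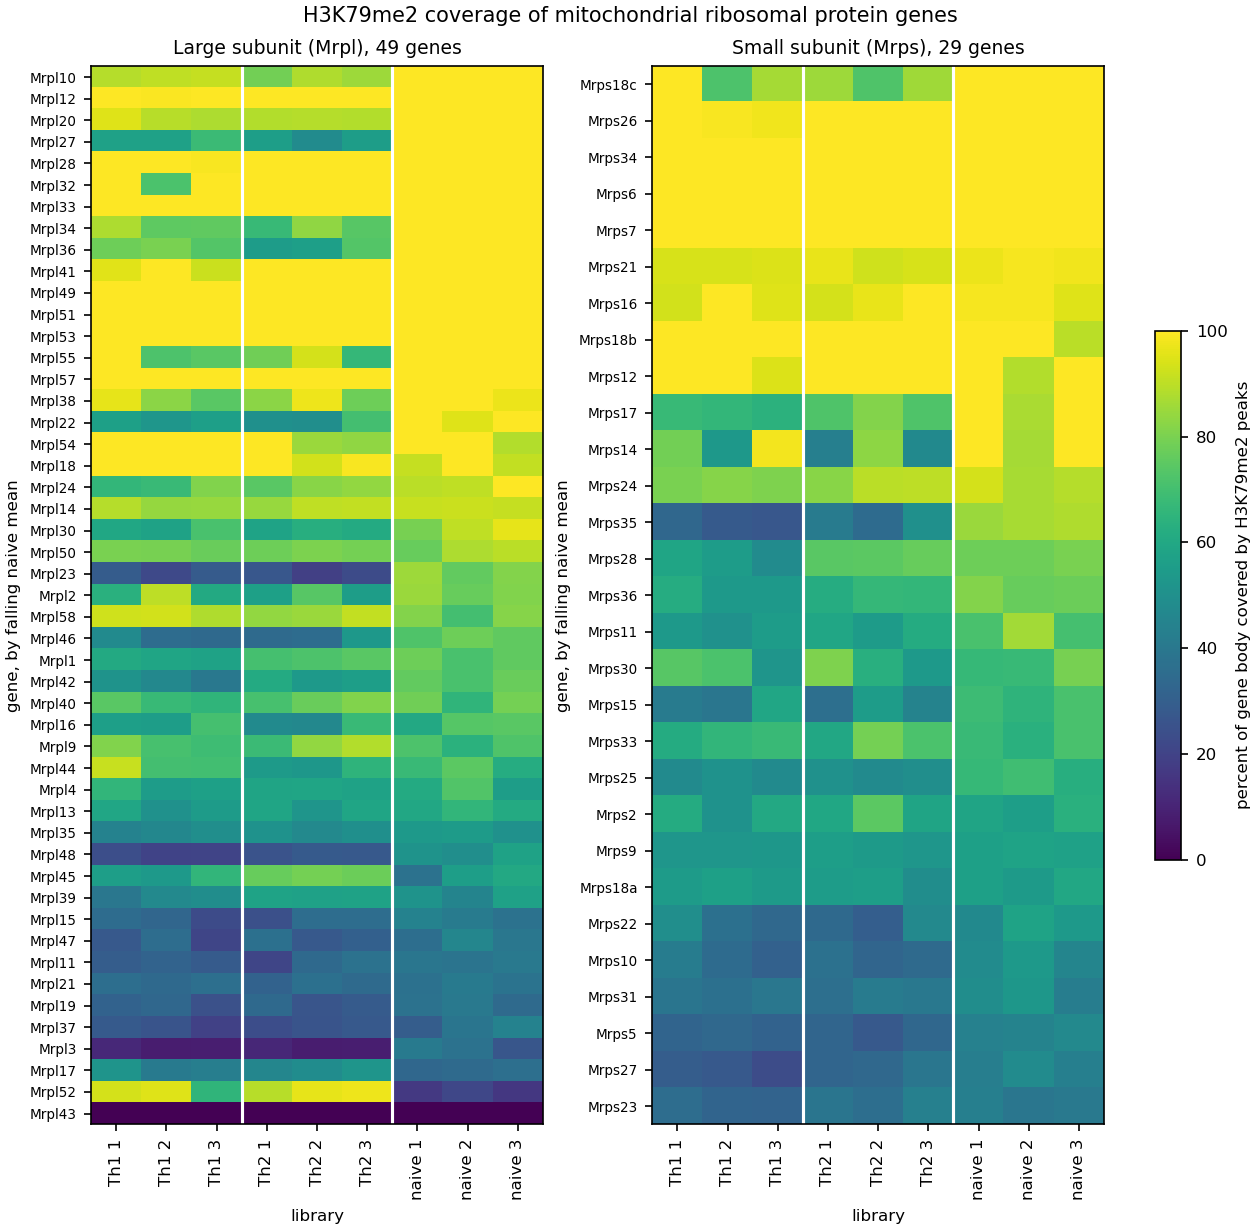
Percent of the gene body covered by H3K79me2 peaks (colour, 0 to 100%) for the 49 large-subunit (left) and 29 small-subunit genes (right), a row per gene ordered by naive mean and a column per library. Full coverage in all libraries at the top contrasts with Mrpl43 at 0% at the bottom left, and Mrpl52, just above it, is the gene with low naive and high Th1 and Th2 values.

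Of the 78 genes, 51 were marked in all 3 cell types. Coverage was 100% in all 9 lists at 6 of them, Mrpl49, Mrpl51, Mrpl53, Mrpl57, Mrps34 and Mrps7, and was 90% or more in every list at 15. Among those 15 was Mrpl12, part of the flexible stalk that recruits translation factors, at 99.5 to 100% in Th1 libraries and 100% in all Th2 and naive libraries. Mrpl52 was the only gene marked in Th1 and Th2 but not in naive cells. Mrpl23, Mrpl35, Mrpl46, Mrpl48, Mrps15, Mrps22, Mrps25 and Mrps35 were marked in naive cells only, although Mrpl35 lay close to the limit at 46.8 ± 2.57% in Th1, 49.3 ± 1.98% in Th2 and 53.1 ± 2.16% in naive libraries (mean ± SD, n = 3 each, as below). Mrpl16 and Mrps14 were marked in Th1 and naive cells, and Mrpl39 and Mrpl42 in Th2 and naive cells. The other 14 genes, Mrpl3, Mrpl11, Mrpl15, Mrpl17, Mrpl19, Mrpl21, Mrpl37, Mrpl43, Mrpl47, Mrps5, Mrps10, Mrps23, Mrps27 and Mrps31, were marked in no cell type.

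Short genes were covered most fully. The genes had a median length of 7.69 kb, against 17.3 kb for all protein-coding genes, and Mrpl53 and Mrpl34, the shortest, spanned 0.825 and 0.828 kb. Among the 25 genes under 5 kb the median coverage was 95.9% in Th1, 96.7% in Th2 and 100% in naive cells. Among the 16 genes of 10 to 25 kb it was 42.6, 44.5 and 51.3%, but among the 7 genes over 25 kb it was 52.7, 54.4 and 74.9%. Of the genes marked in no cell type all but Mrpl43 were covered in part: Mrpl15, 12.6 kb long, was covered over 30.4 ± 6.77% in Th1, 31.99 ± 6.43% in Th2 and 41.2 ± 3.47% in naive libraries, and Mrpl11, which forms the base of the stalk and is 4.84 kb long, over 30.01 ± 1.66%, 30.9 ± 8.73% and 39.4 ± 1.01%. Of the genes of 5 to 10 kb, 76.7% were marked in Th1, 73.3% in Th2 and 86.7% in naive cells, beside 33.9, 34.0 and 39.6% of all 2892 protein-coding genes of that length. Of the genes of 10 to 25 kb, 25% were marked in Th1, 37.5% in Th2 and 56.3% in naive cells, beside 30.4, 30.6 and 39.7% of all genes of that length. Of the 7 genes over 25 kb, 57.1% were marked in Th1, 57.1% in Th2 and 85.7% in naive cells, beside 24.4, 24.9 and 33.1% of all genes of that length.

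The domains sat at the 5′ ends. A start site and strand were given for 69 of the 78 genes by the RefSeq promoter table, and those without were Mrpl15, Mrps28, Mrpl19, Mrps35, Mrpl4, Mrpl54, Mrpl38, Mrps34 and Mrpl13. In every list 68 of the 69, all but Mrpl43, had a domain on the gene within the first 2 kb downstream of the start, beside 45.7 to 47.3% of 17274 genes with a start. The base of the start itself was covered at 39 to 46 genes in Th1, 46 to 56 in Th2 and 60 to 61 in naive libraries. Of all genes with such a domain, 52.8 to 56.8%, 53.4 to 59.6% and 70.9 to 72.4% had a covered start, with the same order of cell types. From the start, the domain reached downstream over a median of 4.16 to 4.67 kb in Th1, 4.40 to 4.60 kb in Th2 and 5.84 to 6.18 kb in naive libraries. The corresponding medians over all genes were 7.60 to 8.66, 7.71 to 8.03 and 10.7 to 11.2 kb. The first domain ran past the annotated gene end at 17 to 22 genes in Th1, 19 to 21 in Th2 and 24 to 26 in naive libraries.

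**Figure D2:**
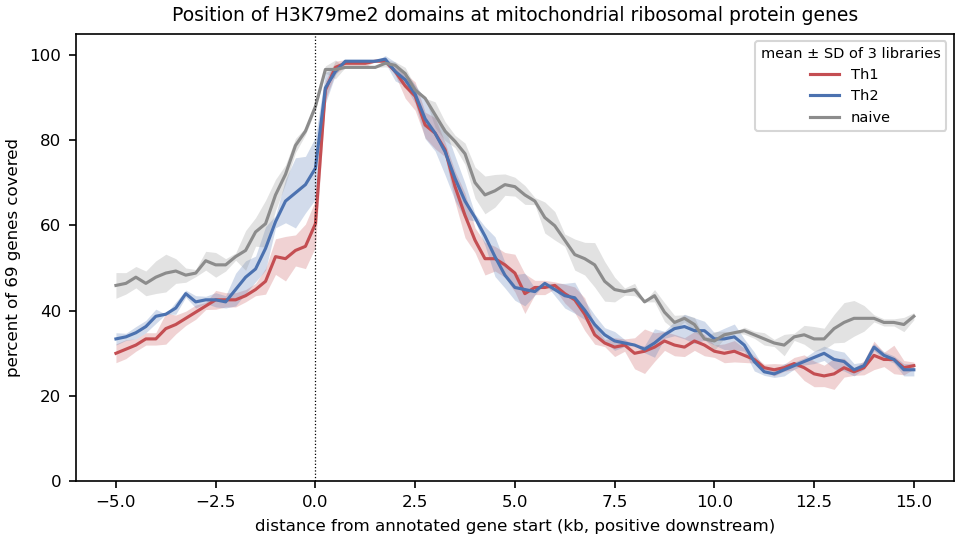
Share of the 69 genes with a start site that were covered at each distance from the start (horizontal axis, kb, positive downstream; vertical axis, percent of the 69 genes), as the mean (line) and SD (band) of 3 libraries in Th1, Th2 and naive cells. The 3 lines meet between 0.5 and 1.75 kb downstream, and naive cells lie above Th1 and Th2 cells upstream of the start and up to 0.25 kb downstream. Naive cells lie above both again from 2 to 9.5 kb and from 10.25 to 15 kb downstream, while Th2 cells lie highest at 9.75 and 10 kb.

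The promoters of 5 of these genes are shown because the results below turn on where the domain lies relative to them: Mrpl52 with the gain, Mrpl27 and Mrpl22 with losses from near full coverage, Mrps11 because its start is shared with Mrpl46, and Mrpl43 because no domain reached it. Each window runs from 250 bases before to 50 bases after the RefSeq start on GRCm38.p6, is written 5′ to 3′ on the strand of the gene, and has in capitals the matched letters of the motif named after it. The match is CCGGAAGT (ETS factors) or its reverse ACTTCCGG for Mrpl52, Mrpl27 and Mrpl43, GCGCATGCG (NRF1) for Mrpl22, and CGCCATCTT, the reverse of AAGATGGCG (YY1), for Mrps11.
Mrpl52, chr14:54426659-54426958, plus strand: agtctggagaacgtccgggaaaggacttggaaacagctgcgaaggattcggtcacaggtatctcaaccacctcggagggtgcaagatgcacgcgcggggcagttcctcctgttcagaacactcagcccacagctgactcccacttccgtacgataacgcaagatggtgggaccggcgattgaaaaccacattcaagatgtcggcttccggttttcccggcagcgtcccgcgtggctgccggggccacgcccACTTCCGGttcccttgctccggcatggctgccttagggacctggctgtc
Mrpl27, chr11:94653541-94653840, plus strand: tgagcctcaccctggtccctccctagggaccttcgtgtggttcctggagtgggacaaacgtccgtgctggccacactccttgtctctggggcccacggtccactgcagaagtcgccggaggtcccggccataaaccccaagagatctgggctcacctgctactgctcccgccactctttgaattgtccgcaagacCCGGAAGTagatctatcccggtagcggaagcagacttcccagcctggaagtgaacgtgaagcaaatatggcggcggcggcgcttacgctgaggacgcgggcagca
Mrpl22, chr11:58171414-58171713, plus strand: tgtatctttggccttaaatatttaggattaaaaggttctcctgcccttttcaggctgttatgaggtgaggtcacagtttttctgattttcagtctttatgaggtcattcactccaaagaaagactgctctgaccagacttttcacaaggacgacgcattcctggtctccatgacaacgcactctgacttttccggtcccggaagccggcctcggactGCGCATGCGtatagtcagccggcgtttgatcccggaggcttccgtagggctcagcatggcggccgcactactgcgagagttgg
Mrps11, chr7:78782881-78783180, plus strand: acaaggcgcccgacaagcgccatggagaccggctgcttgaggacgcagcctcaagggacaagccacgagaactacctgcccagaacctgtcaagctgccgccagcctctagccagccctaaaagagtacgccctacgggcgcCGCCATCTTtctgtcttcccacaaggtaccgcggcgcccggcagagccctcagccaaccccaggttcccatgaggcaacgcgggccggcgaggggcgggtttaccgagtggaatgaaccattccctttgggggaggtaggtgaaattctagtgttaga
Mrpl43, chr19:45006393-45006692, minus strand: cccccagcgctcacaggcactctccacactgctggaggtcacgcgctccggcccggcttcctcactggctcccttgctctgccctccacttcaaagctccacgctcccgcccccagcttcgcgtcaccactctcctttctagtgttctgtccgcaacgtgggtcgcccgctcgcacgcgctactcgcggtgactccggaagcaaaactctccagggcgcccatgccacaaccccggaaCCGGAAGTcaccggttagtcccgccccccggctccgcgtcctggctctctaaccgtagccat

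Of 5 motifs searched on both strands of these windows, 3 had a higher share of the 69 promoters than of all 17274. NRF1, a factor known to drive nuclear genes of mitochondria, had its letters GCGCATGCG in 7 of 69 promoters (10.1%) and in 2.43% of all promoters. The ETS letters CCGGAAGT stood in 11 (15.9%) and in 5.34% of all, and the YY1 letters AAGATGGCG in 8 (11.6%) and in 1.92% of all. The letters CCAAT stood in 27 (39.1%) and in 39.6% of all, and TATAAA in 4 (5.80%) and in 13.4% of all. No motif contains the letters of another. A match describes the sequence and is no evidence of binding. The median GC content of the windows was 58.3%, beside 56.3% for all promoters. Divergent starts were also frequent: 23 of the 69 genes (33.3%) had the start of a protein-coding gene of the other strand within 1 kb upstream or 200 bases downstream of theirs, beside 8.05% of all genes with a start.

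Th1 cells carried the mark over less of 8 large-subunit and 2 small-subunit genes than naive cells did, and over more of Mrpl52. Of the 71 genes whose value was not the same in all 9 lists, 1 was called higher and 10 lower, with a limma adjusted p under 0.05 together with a change of 25 or more percentage points. Over all 11600 genes tested, 4.38% were called higher and 16.3% lower, and the 1.41 and 14.1% among the 71 lie close to or below that background. The median difference was −9.29 points over the 71 genes, 61 of them negative, and −5.54 points over all genes tested, where 8145 were negative. The shift depended on the scaling of the libraries: with each library centred on its mean over the genes, the medians became −1.05 and +2.70 points, 38 of the 71 genes were negative, and 5 genes were called lower. Over the first 2 kb of a gene alone, where 39 of the genes could be tested, Mrpl52 was called higher and Mrpl20 lower. Centring also moved the split of calls over all genes to 736 higher and 1175 lower, against 508 and 1895 without it.

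Mrpl52, which encodes a large-subunit protein without a bacterial counterpart, lies at chr14:54426909-54429750 on the plus strand and is 2.84 kb long. It was covered over 93.6, 95.1 and 65.4% in the Th1 libraries and 89.2, 96.1 and 97.4% in the Th2 libraries, against 16.4, 21.3 and 16.4% in the naive libraries. All 6 helper cell values lay above all 3 naive values, with Th1 replicate 3 lowest among the 6. The difference from naive was +66.7 points in Th1 cells (SE 7.50, limma adjusted p = 0.000156) and +76.2 points in Th2 cells (SE 7.50, adjusted p = 7.94e-05). In every cell type a domain covered the Mrpl52 start, but it reached 2.41 ± 0.476 kb downstream in Th1, 2.68 ± 0.125 kb in Th2 and 0.512 ± 0.0794 kb in naive libraries. Upstream of the start it reached 2.80 ± 0.321 kb, 2.48 ± 0.753 kb and 3.77 ± 0.0730 kb. Measured over the gene plus 5 kb on each side, the Mrpl52 difference was +0.955 points in Th1 and +1.34 points in Th2 cells, and was not called.

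**Figure D3:**
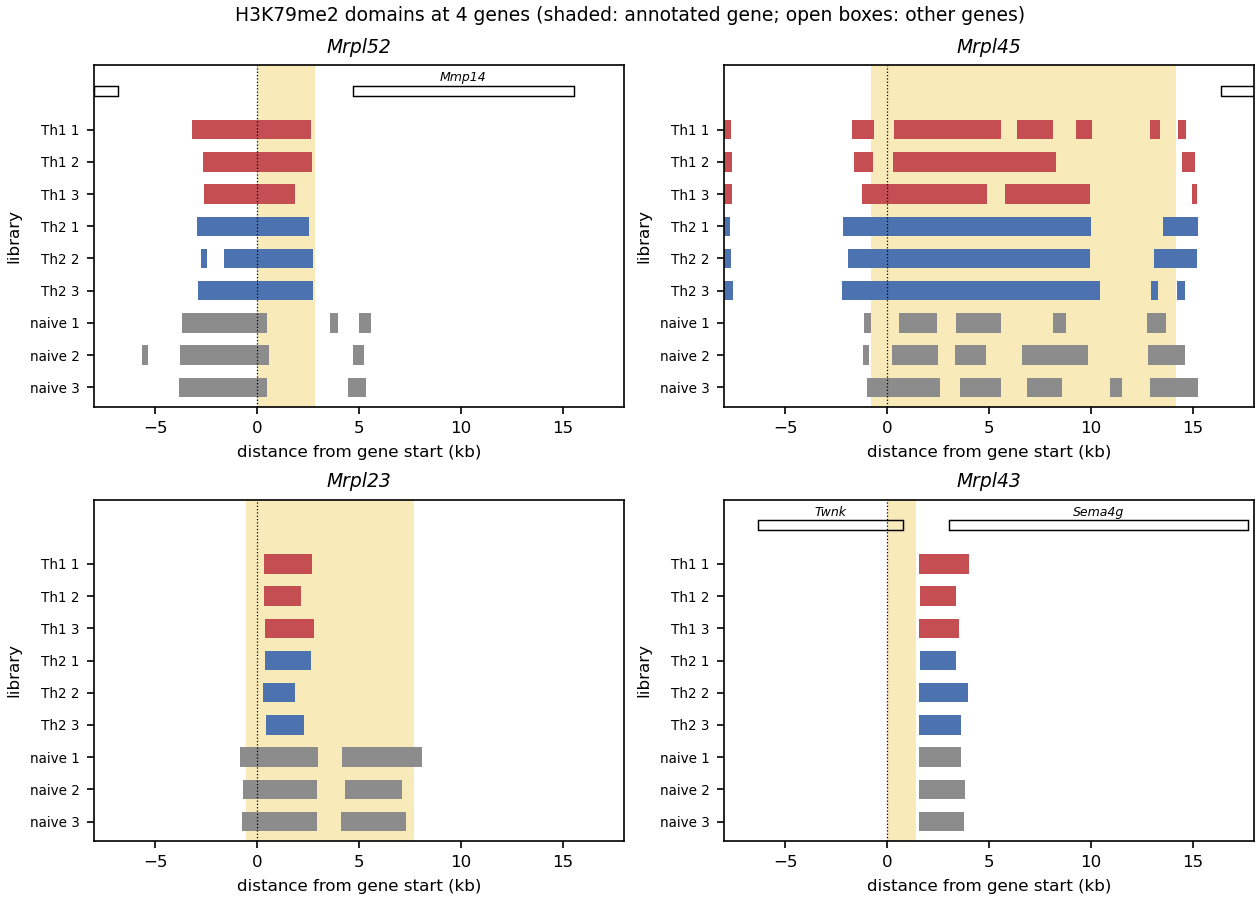
H3K79me2 domains (bars) in each library (rows, Th1, Th2 and naive replicates 1 to 3) at Mrpl52, Mrpl45, Mrpl23 and Mrpl43, by distance from the RefSeq start in kb; the shaded span is the annotated gene, which can begin before that start, and open boxes are other protein-coding genes. At Mrpl52 the naive bar over the start ends within 1 kb downstream of it, at Mrpl23 the distal bar is present only in naive libraries, and at Mrpl43 all bars begin just past the gene.

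The largest losses in Th1 cells were at Mrps35 and Mrpl23. Mrps35, which encodes a small-subunit protein without a bacterial counterpart, lies at chr6:147042728-147070906 and is 28.2 kb long. Its coverage was 33.6, 28.3 and 27.2% in the Th1 libraries and 41.6, 35.1 and 50.1% in the Th2 libraries, against 85.1, 86.7 and 88.2% in the naive libraries, so that no helper cell value reached the naive range. The difference was −57.0 points in Th1 (SE 3.77, limma adjusted p = 9.32e-06) and −44.4 points in Th2 cells (SE 3.77, adjusted p = 3.71e-05). The longest domain on Mrps35 measured 5.93 ± 0.220 kb in Th1, 6.96 ± 0.968 kb in Th2 and 18.5 ± 0.217 kb in naive libraries.

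Mrpl23 encodes a protein at the mouth of the tunnel through which the new chain leaves the ribosome, and lies at chr7:142532467-142540747. It was covered over 29.01, 22.1 and 28.8% in the Th1 libraries and 27.2, 18.9 and 22.9% in the Th2 libraries, against 85.5, 76.1 and 81.5% in the naive libraries. No helper cell value reached the naive range, while the Th1 and Th2 values overlapped. The difference was −54.4 points in Th1 (SE 3.34, limma adjusted p = 6.34e-06) and −58.1 points in Th2 cells (SE 3.34, adjusted p = 5.16e-06). The upstream reach of the domain at the Mrpl23 start averaged −0.352 kb in Th1 and −0.386 kb in Th2 libraries, a negative reach meaning that the domain began downstream of the start, and 0.754 kb in naive libraries. A further domain over the distal gene body was present in naive libraries only. With peaks of −log10 q of at least 5 alone, and likewise at matched covered length (the lists cut to the same total by dropping their weakest peaks), the difference was −15.9 points in Th1 and −19.6 points in Th2 cells and was no longer called.

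Mrpl27 and Mrpl22 stood near full coverage in naive cells. Mrpl27, whose product lies beside the site of peptide bond formation, was covered over 57.3, 57.1 and 68.2% in the Th1 libraries and 56.2, 48.1 and 55.5% in the Th2 libraries, against 100% in all 3 of the naive libraries. It starts 48 bases from Eme1, an endonuclease subunit gene on the other strand, and overlaps it, so that the covered start cannot be given to either gene. Its differences were −39.1 points in Th1 (SE 3.43, limma adjusted p = 4.02e-05) and −46.7 points in Th2 cells (SE 3.43, adjusted p = 1.79e-05). The domain ran 4.50 ± 0.261 kb downstream of the Mrpl27 start in Th1, 4.33 ± 0.367 kb in Th2 and 26.8 ± 2.73 kb in naive libraries, where it went on into Xylt2. Mrpl27 and Mrps35 were the only called genes that stayed called in both comparisons under all alternative settings that gave them a value. The first 2 kb of the gene gave neither of them a value, and leaving out overlapping genes gave Mrpl27 none. Over the first 2 kb, 1 gene was called lower in each comparison, against 10 in Th1 and 11 in Th2 cells in the main setting.

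Mrpl22, whose product lines the exit tunnel, was covered over 56.7, 52.6 and 56.5% in the Th1 libraries and 50.1, 49.3 and 70.03% in the Th2 libraries, against 100, 95.1 and 100% in the naive libraries. The naive values lay above all others, and Th2 replicate 3 stood apart from the other Th2 libraries. The difference was −43.1 points in Th1 (SE 5.29, limma adjusted p = 0.000249) and −41.9 points in Th2 cells (SE 5.29, adjusted p = 0.000298). Upstream of the RefSeq start of Mrpl22, which lies inside the annotated gene, the domain reached −0.0800 ± 0.0386 kb in Th1, 0.0347 ± 0.384 kb in Th2 and 14.3 ± 5.01 kb in naive libraries. In naive replicates 1 and 3 a single domain of 73.0 and 64.5 kb joined Mrpl22 to Gemin5, Gm12250, Igtp and Irgm2, interferon-inducible GTPase genes among them, and in naive replicate 2 the Mrpl22 domain measured 18.8 kb and reached only Gemin5. The longest domain on Mrpl22 averaged 13.4 ± 15.8 kb in Th1, 7.18 ± 3.26 kb in Th2 and 52.1 ± 29.2 kb in naive libraries. It touched a median of 1, 2 and 5 protein-coding genes, Mrpl22 included, so that domains shared with a neighbour were not limited to naive cells.

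Mrpl46 and Mrps11 share a divergent start. Their starts lie 42 bases apart on chromosome 7, and in every list 1 domain covered a part of both genes. It measured 7.77 to 9.09 kb in Th1, 8.17 to 9.99 kb in Th2 and 12.3 to 12.5 kb in naive libraries. Mrpl46, in the central protuberance of the large subunit, was covered over 47.97, 35.5 and 34.3% in the Th1 libraries and 34.6, 35.2 and 53.2% in the Th2 libraries, against 72.3, 77.9 and 75.5% in the naive libraries. It was called lower in both comparisons, with a difference of −35.97 points in Th1 (SE 5.77, limma adjusted p = 0.00103) and of −34.2 points in Th2 cells (SE 5.77, adjusted p = 0.00137). Mrps11, in the platform of the small subunit, was not called, its differences being under 25 points: it was covered over 53.3 ± 2.43% in Th1, 58.5 ± 3.39% in Th2 and 75.97 ± 8.75% in naive libraries, differences of −22.7 (adjusted p = 0.00230) and −17.5 points (adjusted p = 0.00852).

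The other genes called lower in Th1 cells were Mrpl48, Mrps17, Mrpl42, Mrpl30 and Mrpl3. With libraries centred none of them was called in Th1 cells, their differences falling under 25 points. Mrpl48, a further protein of the central protuberance, was covered over 24.04, 20.2 and 20.4% in the Th1 libraries and 25.6, 28.2 and 28.1% in the Th2 libraries, against 51.4, 49.4 and 57.5% in the naive libraries, and differed by −31.2 points in Th1 (SE 2.34, limma adjusted p = 1.76e-05). It overlaps Rab6a, a gene of Golgi traffic, and its longest domain crossed into Rab6a in all 9 lists. Mrps17, a protein of the small-subunit body, was covered over 67.3, 66.1 and 64.3% in the Th1 libraries and 72.6, 81.6 and 72.6% in the Th2 libraries, against 100, 87.3 and 99.6% in the naive libraries. Here the Th2 values lay between the Th1 and naive values without touching either. Mrps17 differed by −29.7 points in Th1 (SE 3.91, adjusted p = 0.000356) and by −20.1 points in Th2 cells, which was under the limit of 25 points. Mrpl42 behaved likewise, with 46.1 ± 5.67% in Th1, 56.9 ± 3.82% in Th2 and 74.8 ± 3.21% in naive libraries and a difference of −28.8 points in Th1 cells (SE 3.39, adjusted p = 0.000201). Mrpl30 and Mrpl3 lay near the limit: Mrpl30 differed by −25.9 points in Th1 (adjusted p = 0.00252), and Mrpl3, which reaches towards the site of peptide bond formation, by −25.8 points (adjusted p = 0.000331). The Mrpl30 call was lost without Th1 replicate 1 (−24.2), Th1 replicate 2 (−23.4) or naive replicate 3 (−22.2 points), and the Mrpl3 call without naive replicate 1 (−22.9) or 2 (−24.5 points). Mrpl3 had the lowest coverage of the called genes, with 11.4, 8.11 and 8.42% in the Th1 libraries and 11.1, 8.10 and 8.29% in the Th2 libraries, against 40.8, 37.7 and 26.8% in the naive libraries.

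**Figure D4:**
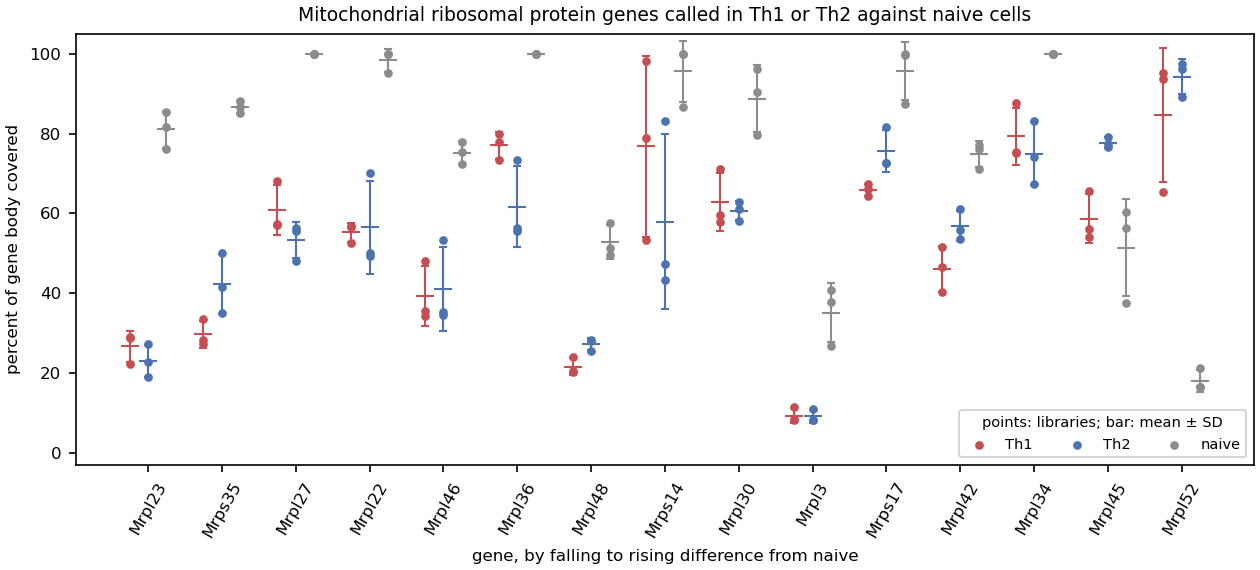
Percent of the gene body covered (vertical axis) for the 15 genes called in Th1 or Th2 against naive cells (horizontal axis), with a point per library and the mean ± SD of 3 libraries in Th1, Th2 and naive cells. The naive points lie above the others from Mrpl23 to Mrpl34 save for Mrps14, where they overlap with Th1, and below them at Mrpl52.

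In Th2 cells, set against naive cells, 2 of the 71 genes were called higher and 11 lower by limma. Over all 11600 genes tested 4.26% were called higher and 15.4% lower, so that the 2.82 and 15.5% among the 71 lie at the background. The median difference was −8.01 points over the 71 genes and −5.50 points over all genes tested. With libraries centred these became −0.320 and +2.19 points, and 6 genes were called lower. Both comparisons use the same naive libraries, so that the calls they have in common are not independent. The common calls were Mrpl52 (higher) and Mrps35, Mrpl23, Mrpl22, Mrpl27, Mrpl46, Mrpl48, Mrpl30 and Mrpl3 (lower). In Th2 cells Mrpl30 differed from naive by −28.1 points (adjusted p = 0.00171), Mrpl3 by −25.9 points (adjusted p = 0.000330) and Mrpl48 by −25.5 points (adjusted p = 5.56e-05). In Th2 cells the Mrpl30 call was lost without naive replicate 3 (−24.3), the Mrpl3 call without naive replicate 1 (−23.1) or 2 (−24.6), and the Mrpl48 call without Th2 replicate 1 (−24.7) or naive replicate 3 (−23.1 points). At matched covered length Mrpl48 stood at −17.7 points in Th1 and −13.9 in Th2 cells, Mrpl3 at −10.2 and −11.4 points, and Mrpl42 at −8.68 points in Th1 cells, none of them called.

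Mrpl45 was the second gene higher in Th2 than in naive cells. Its product sits at the tunnel exit and holds the ribosome to the inner mitochondrial membrane. Mrpl45 lies at chr11:97314923-97329920 and was covered over 56.2, 54.04 and 65.6% in the Th1 libraries and 76.6, 79.1 and 77.5% in the Th2 libraries, against 37.6, 56.2 and 60.3% in the naive libraries. The Th2 values lay close together and above all others, while the Th1 and naive values overlapped and naive replicate 1 lay lowest. The difference was +26.4 points in Th2 (SE 5.89, limma adjusted p = 0.00569) and +7.25 points in Th1 cells (adjusted p = 0.324). Without naive replicate 1 the Th2 difference was +19.5 points and was not called. The domain at the Mrpl45 start ran 6.26 ± 1.80 kb downstream in Th1, 10.2 ± 0.271 kb in Th2 and 2.502 ± 0.0793 kb in naive libraries. After a short gap a further domain ran from 3.36 to 5.60, 3.34 to 4.87 and 3.57 to 5.61 kb in naive replicates 1 to 3. The shorter naive reach thus depends on where peaks were split. With peaks under 1 kb apart joined, only 1 gene was called higher in Th2 cells. With 5 kb flanks neither Mrpl45 nor Mrpl52 was.

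Mrpl36, Mrps14 and Mrpl34 were called lower in Th2 only; whether Th2 and Th1 cells differed there is given by their direct comparison below. Mrpl36, a small zinc-binding protein of the large subunit, was covered over 77.99, 79.8 and 73.4% in the Th1 libraries and 55.5, 56.3 and 73.4% in the Th2 libraries, against 100% in all 3 of the naive libraries. It differed from naive by −38.3 points in Th2 (SE 4.58, limma adjusted p = 0.000223) and by −22.9 points in Th1 cells. Mrps14, in the head of the small subunit, was covered over 78.9, 53.2 and 98.2% in the Th1 libraries and 43.3, 83.1 and 47.4% in the Th2 libraries, against 100, 86.7 and 100% in the naive libraries. Its libraries scattered more than those of any other called gene, and Th1 replicate 3 and Th2 replicate 2 stood close to the naive values. The Mrps14 difference was −37.6 points in Th2 cells (SE 13.7, adjusted p = 0.0465), and leaving out Th2 replicate 1, Th2 replicate 3 or any naive replicate ended the call, with adjusted p from 0.0652 to 0.138. Mrpl34, at 0.828 kb, was covered over 87.6, 75 and 75.5% in the Th1 libraries and 67.4, 83.2 and 74.2% in the Th2 libraries, against 100% in all 3 of the naive libraries. It differed from naive by −25.1 points in Th2 (SE 4.57, adjusted p = 0.00206) and by −20.7 points in Th1 cells, and was not called in Th2 cells without Th2 replicate 1 (−21.3) or 3 (−24.7 points).

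Mrpl17 and Mrpl58 had more coverage in helper cells without reaching 25 points. Mrpl17, a large-subunit protein shared with bacteria, was covered over 51.9, 40.9 and 42.9% in the Th1 libraries and 45.7, 48.8 and 52.3% in the Th2 libraries, against 33.6, 34.7 and 36.5% in the naive libraries, and every helper cell value lay above every naive value. Its differences were +10.32 points in Th1 (limma adjusted p = 0.0232) and +14.02 points in Th2 cells (adjusted p = 0.00587). Mrpl58, a peptidyl-tRNA hydrolase that frees stalled ribosomes, was covered over 91.4 ± 2.73% in Th1, 86.5 ± 3.61% in Th2 and 77.9 ± 6.60% in naive libraries, and differed by +13.5 points in Th1 (adjusted p = 0.0108) and +8.68 points in Th2 cells (adjusted p = 0.0629). These 2 genes were chosen after their values were seen. At an adjusted p under 0.05 with no minimum difference, losses outnumbered gains. Of the 71 genes 3 were higher and 33 lower in Th1, and 3 and 28 in Th2 cells. Of all 11600 genes 1369 were higher and 5552 lower in Th1, and 1405 and 5504 in Th2 cells.

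Th2 and Th1 cells, set directly against each other, gave no called gene: 0 of 71 were higher and 0 lower in Th2 by limma, beside 2.08 and 1.56% of all genes tested. At an unadjusted p under 0.05 and with no minimum difference, 12 of the 71 were higher in Th2 and 3 were lower, beside 15.2 and 11.99% of all genes tested. At an adjusted p under 0.05 2 were higher and 0 lower, beside 8.62 and 6.58% of all genes tested, so that the share among the 71 lay below the background. Those 2 were Mrps28 and Mrpl1. Mrps28, at chr3:8802146-8923857 and 121.7 kb the longest of the 78 genes, was covered over 74.3, 74.9 and 76.6% in Th2 and 58.97, 55.4 and 48.4% in Th1 libraries, against 78.1, 77.9 and 80.03% in naive libraries. The Th2 values lay above all Th1 values and below all naive values. Mrps28 differed by +21.04 points between Th2 and Th1 cells (SE 2.58, adjusted p = 0.00153), and its longest domain measured 37.2 ± 8.38 kb in Th2, 10.9 ± 1.20 kb in Th1 and 68.6 ± 15.4 kb in naive libraries. Mrpl1, whose product forms the mobile arm by which spent tRNA leaves the large subunit, was covered over 70.6, 72.3 and 74.6% in Th2 and 60.6, 58.9 and 57.5% in Th1 libraries, a difference of +13.5 points (SE 2.01, adjusted p = 0.00395).

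The other large differences between the helper types did not pass. Mrpl44, a protein with a ribonuclease-like fold near the tunnel exit, was covered over 54.4, 52.8 and 65.00% in Th2 and 91.7, 69.97 and 69.9% in Th1 libraries, a difference of −19.8 points (limma adjusted p = 0.0982), with Th1 replicate 1 far above the rest. Mrpl45 differed by +19.1 (adjusted p = 0.0739), Mrps14 by −18.8 (adjusted p = 0.470) and Mrpl36 by −15.4 points (adjusted p = 0.0662). Mrpl34, called lower in Th2 but not in Th1 cells, differed by −4.43 points (adjusted p = 0.628). Mrps35 differed by +12.6, Mrpl39 by +12.4, Mrpl42 by +10.8 and Mrpl54 by −10.4 points, with adjusted p between 0.0564 and 0.214. With 3 libraries a side these values do not show that the helper types are alike at these genes.

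Mrpl43 was the exception to the mark on this family. It lies at chr19:45005014-45006442 on the minus strand, is 1.43 kb long, and was covered over 0% in all 9 lists. Its neighbour Twnk, the mitochondrial DNA helicase gene that overlaps it, was at 0% in all lists as well. The nearest domain in each list lay 121 to 171 bases past the annotated 3′ end of Mrpl43. That domain was 1.78 to 2.42 kb long, had the authors' fold enrichment of 2.91 to 3.43, and reached only Sema4g, a semaphorin gene, of which it covered 2.23 to 6.52%. No domain therefore touched Mrpl43 in Th1, Th2 or naive cells. A gene without a peak may still carry the mark below the threshold of the peak caller.

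Many domains held more than 1 gene. The longest domain on a gene had a median length of 6.14 to 7.71 kb in Th1, 7.07 to 7.85 kb in Th2 and 11.1 to 12.1 kb in naive libraries over the 77 covered genes. It touched a further protein-coding gene at 31 to 37, 36 to 39 and 41 to 43 of them, and 20 of the 78 genes overlap another protein-coding gene in the annotation, where the mark cannot be assigned to either. By the mean over the 9 lists the longest domains were those on Mrps6, Mrps28, Mrpl51, Mrpl1 and Mrpl33. The Mrps6 domain spanned nearly all of the 53.9 kb of the gene with the transporter gene Slc5a3 inside it, and measured 54.8 ± 0.673 kb in Th1, 55.7 ± 0.425 kb in Th2 and 56.99 ± 0.927 kb in naive libraries. The Mrpl51 domain also held Ncapd2, Gapdh and Iffo1 in 8 lists, and Ncapd2 alone in Th2 replicate 3, and measured 34.9 to 36.1 kb in Th1, 21.5 to 35.8 kb in Th2 and 40.9 to 41.1 kb in naive libraries. The Mrpl1 domain was 30.6 ± 2.97 kb, 40.9 ± 1.96 kb and 32.5 ± 3.24 kb, and the Mrpl33 domain 28.3 ± 8.69 kb, 30.4 ± 3.58 kb and 33.3 ± 9.78 kb.

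Peak strength was described by the authors' fold enrichment of the strongest peak on a gene, ranked within its own list. The highest mean ranks were those of Mrpl48, at percentile 97.4 of the peaks of a list, Mrpl49 at 96.6, Mrps7 at 95.1, Mrpl50 at 94.5 and Mrpl18 at 93.98. The fold enrichment of the strongest Mrpl48 peak ran from 6.01 to 8.71 over the 9 lists, and that peak is shared with Rab6a. Mrpl49, Mrps7 and Mrpl18 also overlap other genes, namely Syvn1, Gga3 with Mif4gd, and Tcp1, a chaperonin subunit gene. The median rank of the 77 genes was between 86.9 and 90.8 in the 9 lists, beside 88.4 to 91.2 for all genes with a peak.

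Among other genes of mitochondrial gene expression all calls against naive cells were lower, and among cytosolic ribosomal protein genes all were higher. Of the 66 tested other mitochondrial genes 15 were called lower in Th1 and 11 in Th2 cells. Over all genes tested 16.3 and 15.4% were called lower, and 4.38 and 4.26% higher. Over 18 alternative settings, 0 to 2 of the other mitochondrial genes were called higher in Th1 and 0 to 4 in Th2 cells, and 0 to 3 and 0 to 1 of the cytosolic genes were called lower. Of 44 tested large-subunit genes 1 was called higher and 8 lower in Th1 against naive cells, and 2 higher and 9 lower in Th2, so that 18.2 and 20.5% were lower. Of 27 tested small-subunit genes 2 (7.41%) were called lower in each comparison. The symbols do not follow the subunits fully, since Mrps18a and Mrps30 are large-subunit proteins in mammalian structures and Mrps36 has been assigned to the oxoglutarate dehydrogenase complex. Among 22 tested mitoribosome assembly genes 7 were called lower in Th1 (31.8%) and 4 in Th2 cells (18.2%), with none higher. With libraries centred 1 and 3 were lower, and at matched covered length 3 and 2. The genes called lower included Mterf4, a partner in methylation of the ribosomal RNA, at −52.99 points in Th1 and −48.6 in Th2 cells, and Dhx30, a helicase, at −33.1 and −35.03 points. At matched covered length Dhx30 was still called in both comparisons and Mterf4 in neither.

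Among 14 translation factor genes 3 were called lower in Th1 (21.4%) and 2 in Th2 cells (14.3%), beside 16.3 and 15.4% of all genes tested. Taco1, an activator of the translation of a cytochrome oxidase subunit, stood at −55.03 points in Th1 and −52.8 in Th2 cells, and Mrrf, the ribosome recycling factor, at −56.8 and −35.4 points. Among 19 tested genes of mitochondrial aminoacyl-tRNA synthesis 3 (15.8%) and 2 (10.5%) were called lower, with Hars2, the histidine enzyme, at −41.6 and −40.6 points. With libraries centred 1 of these genes was lower in Th1 and 2 in Th2 cells, and at matched covered length 0 were lower in either comparison and 2 were higher in Th2 cells. Of 8 tested genes that copy or transcribe mitochondrial DNA 2 (25%) were called lower in each comparison. They were Polrmt, the RNA polymerase, at −64.1 and −50.3 points and Polg, the DNA polymerase, at −42.02 and −41.9 points. Of 5 mitoribosomal proteins under other symbols 3 were tested, and Dap3, the GTP-binding protein of the small subunit, was called lower in Th2 cells at −26.7 points.

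By contrast, of 77 cytosolic ribosomal protein genes 51 were tested, and 9 (17.6%) were called higher in Th1 and 8 (15.7%) in Th2 cells, with none lower. Over all genes tested 4.38 and 4.26% were called higher, and over all tested genes under 5 kb 10.2 and 11.3%. With libraries centred 19 were called higher in each comparison, and at matched covered length 10 in Th1 and 9 in Th2 cells, again with none lower. Over the 18 alternative settings 1 to 28 were called higher in each comparison. With 5 kb flanks 3 of 75 were higher and 3 lower in Th1, and 5 higher and 1 lower in Th2 cells. Of all 13055 genes tested with flanks 425 were higher and 1582 lower in Th1, and 410 and 1414 in Th2 cells. Over the first 2 kb 1 of 15 cytosolic genes was higher in each comparison. The median difference of the cytosolic genes in the main setting was +9.78 points in both comparisons, beside −9.29 and −8.01 points for the mitochondrial set. Rpl36a, of the cytosolic large subunit, differed by +40.8 points in Th1 and +42.6 in Th2 cells. The median length of the cytosolic genes was 3.18 kb. The difference between the lists was not tested.

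**Figure D5:**
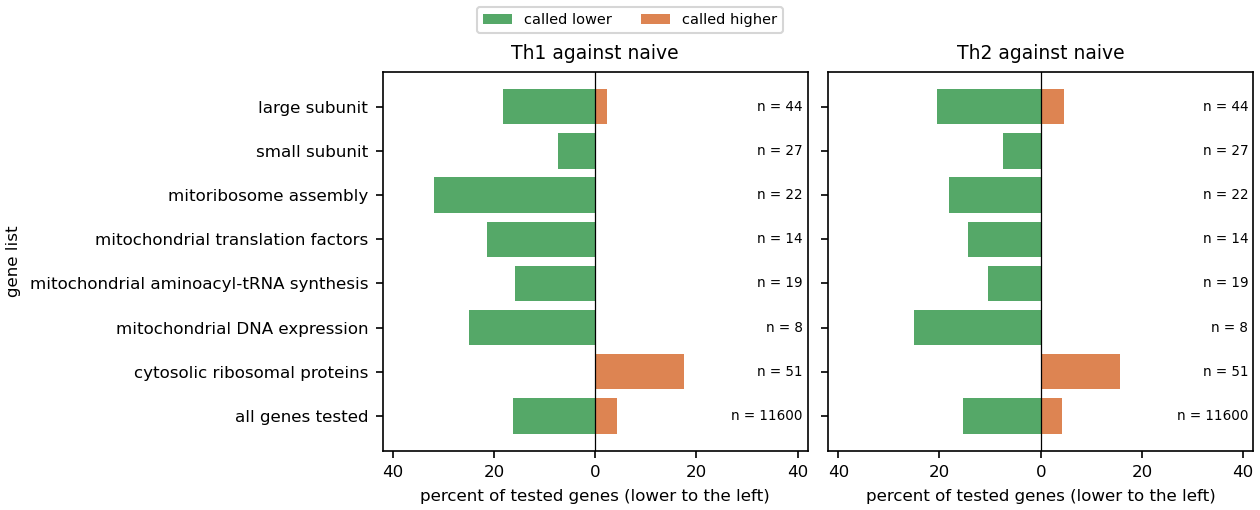
Percent of tested genes called higher (right of 0) and lower (left of 0) in Th1 against naive (left panel) and Th2 against naive cells (right panel), for 7 gene lists and all genes tested, with the number tested beside each bar. The mitochondrial lists have bars to the left of between 7.41 and 31.8%, beside 16.3 and 15.4% for all genes, and cytosolic ribosomal proteins have bars to the right alone.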

How the data were processed

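H3K79me2 was mapped in 9 libraries (3 each of Th1, Th2 and naive cells). The submitters' processing notes name mm10 as the build and MACS2, SAMtools, Picard and Bowtie2 as tools. Their versions and settings, and whether the 9 inputs served as controls, are not given in the sources used here. The authors deposited a broad peak list for each library, so that peaks were called per library. As deposited, each peak carries 4 values: its score for display, its fold enrichment (the ratio over background), and its significance as −log10 p and as −log10 q. The score was not used, the fold was used to rank peaks within a list, and −log10 q to filter peaks in an alternative.

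Peaks (columns 1 to 3) were merged, and the percent of each protein-coding gene covered was computed with Python 3.11.15 (pandas 2.3.3, numpy 2.4.6) on GRCm38.p6 coordinates, 1-based. Genes with the same value in all 9 lists were left out, which left 11600. The rest were fitted with limma 3.58.1 in R 4.3.3 (lmFit, eBayes with trend, 6 residual degrees of freedom) over all 9 libraries, with Benjamini-Hochberg adjustment over all genes. A call needs an adjusted p under 0.05 and 25 points, so that a gene within 25 points of 0 or 100% cannot be called towards it. All adjusted p-values are from limma, and errors are SD over 3 libraries unless SE is stated. In simulated data each of 11600 genes had its mean over all 9 libraries and its average spread within the 3 groups. Known gains were added to the Th1 libraries at genes of low to middle mean coverage, and known losses at genes of middle to high mean coverage. Genes closest to 0 or 100% received neither, so that the rates below do not cover them. The fit for Th1 against naive called 88% of 100 gains and 84% of 100 losses of 30 points. It called 98 and 100% of those of 50 points, and 3 of 11200 unmoved genes. The simulation did not copy the differences that the real groups have at many genes. Read depth is unknown, so no counting interval can be given. Peaks with the same start and end were compared between libraries, and the most that any pair had in common was 1, so each was counted as its own sample.

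The genes and lists were chosen with earlier results of these data known. Named genes were all those called, the 10 with the largest difference in each comparison, those marked in no cell type, the 5 with the strongest peaks and the 5 under the longest domains. Alternatives were a −log10 q of at least 5, lists cut to the same covered length by dropping their weakest peaks, peaks under 1 kb apart joined, flanks of 5 kb, the first 2 kb of a gene, centred libraries, constant genes kept, no variance trend, overlapping genes left out, only the 2 groups compared, no minimum difference, a replicate block, each library left out, and 90% as the limit for marked. Promoters are those of the RefSeq table on GRCm38.p6, matched for 69 of the 78 genes.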

Additional observations from a re-analysis of the deposited data

How the results depend on the processing

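The calls depended on where coverage was measured and on scaling. Genes called higher in Th1 against naive cells, 1 in the main setting, numbered 2 with peaks of −log10 q of at least 5, 3 at matched covered length, 0 with 5 kb flanks and 3 without a minimum difference. Genes called lower in Th1 against naive cells, 10 in the main setting, numbered 1 over the first 2 kb, 5 with centred libraries and 33 without a minimum difference. For Th2 against naive cells, the 2 genes called higher became 1 with peaks under 1 kb apart joined, 0 with flanks and 1 over the first 2 kb, and the 11 called lower became 7 at matched covered length, 1 over the first 2 kb, 6 with centred libraries and 28 without a minimum difference. For Th2 against Th1 cells, 1 gene (Mrpl45, +30.6 points) was called higher with peaks of −log10 q of at least 5 and 2 without a minimum difference. Over all genes, matched covered length gave 819 higher and 1030 lower calls in Th1 and 757 and 1092 in Th2 against naive cells, of 10787 tested. Peaks of −log10 q of at least 5 gave 466 higher calls in Th1 and 421 in Th2 against naive cells, of 9953 genes. In Th2 against Th1 cells they gave 144 higher. With flanks 425 of 13055 genes were higher in Th1 and 410 in Th2 against naive cells. With peaks under 1 kb apart joined 512 of 11492 were higher in Th2 against naive cells. Without a minimum difference 1369 of 11600 genes were called higher and 5552 lower in Th1, and 1405 and 5504 in Th2 cells. Over the first 2 kb 467 of 6186 genes were called higher and 598 lower in Th1, and 504 and 527 in Th2 cells. With centred libraries 1175 of 11600 genes were called lower in Th1 and 1118 in Th2 cells. Of the 78 genes, 22 were marked in Th1, 20 in Th2 and 33 in naive cells at a limit of 90%, and 34 in Th1 cells with flanks. Of all protein-coding genes 10.3, 9.82 and 13.6% were marked at 90%, and 20.6% in Th1 cells with flanks. Uncalled differences between Th2 and Th1 cells changed sign at Mrpl44 (+3 points) and Mrps14 (+0.467 points) over the first 2 kb and at Mrpl54 (+0.803 points) with flanks. The cause was not tested. Leaving out 1 library at a time gave 1 gene higher and 9 to 12 lower in Th1 against naive cells, 1 to 2 higher and 8 to 13 lower in Th2 against naive cells, and 0 in Th2 against Th1 cells. Replicate numbers did not pair the libraries: deviations of same-numbered libraries correlated at −0.0745 to 0.00147, and 0 of 9 libraries correlated best with its own number. With the replicate as a block 1 gene was called higher and 10 lower in Th1 and 2 higher and 10 lower in Th2 against naive cells, without Mrps14 (adjusted p = 0.0893), and 0 in Th2 against Th1 cells. Of all 11600 genes the block called 505 higher and 1878 lower in Th1 and 491 and 1770 in Th2 against naive cells. In Th2 against Th1 cells it called 225 and 168. Of 192 recomputed values for the 11 genes called in Th1 against naive cells 29 lost the call, and of 227 for the 13 called in Th2 against naive cells 49 did, with no sign changed. Read depth behind the lists is unknown, so that a domain missing from a list cannot be told apart from one below the limit of that library.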
